A study of Rattus norvegicus and Mus musculus with 18 samples.

Results

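Cadherins are calcium-dependent adhesion receptors of the cell surface, and the 32 genes described here are the numbered cadherins (21 genes, symbol Cdh and a number) and the numbered protocadherins outside the clustered families (11 genes, symbol Pcdh and a number). They were chosen by name from the array annotation, taking only probe sets with a single gene symbol, and are 32 of the 19342 genes so named over all arrays. The mouse array held all 32 genes in 70 probe sets. The 3 rat array designs held 17 of them, 7 on the first design, 11 on design B and 4 on design C, with some genes on more than 1 design.

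Classical cadherins bind like molecules on the neighbouring cell and hold the actin cytoskeleton through beta-, alpha- and p120-catenin. Epithelia typically carry E-cadherin and mesenchyme typically carries N-cadherin or cadherin-11, and in the embryonic kidney the mesenchyme that condenses into nephrons changes from the mesenchymal to the epithelial set. Protocadherins bind more weakly, mostly signal rather than form firm junctions, and are best known from the nervous system and the early embryo.

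The study divided the embryonic kidney into the ureteric bud, the epithelium from which collecting ducts branch, and the metanephric mesenchyme around it, and asked which transcripts are spatially restricted. Mouse kidneys at E12.5 gave bud tips (about 1000 pieces), bud stalks (about 350) and mesenchymes (about 300). Rat kidneys at E13.5 gave whole buds (about 1200) and mesenchymes (about 240). All tissue was separated with trypsin and DNase for 10 min, with no genetic change or drug named in the labels, which also give neither strain nor sex. Each tissue was 1 pool of RNA labelled 2 times, so every group below has 2 arrays (n = 2), and the p-values measure only the spread of labelling and hybridisation, not the spread between animals.

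The 18 arrays gave 1 deposited intensity per probe set, with no read depth, and precision is limited by how few arrays there are. The labelings of 1 RNA correlated across probe sets at r = 0.992 to 0.998 in mouse, 0.993 to 0.996 in rat mesenchyme and 0.981 to 0.984 in rat bud. The second labeling of the rat bud stood apart, with Gapdh control signal 4.43, 5.28 and 4.26 times as high at the 3' as at the 5' end on the 3 designs, against 1.25 to 1.47 in the other rat arrays. Rat results are therefore also given without it. The dissection was checked with marker lists. Bud epithelium markers (11 of 12 on the mouse array) summed to 26241 to 28400 in tips, 14053 to 14216 in stalks and 728 to 833 in mesenchyme, and nephron progenitor markers (11 of 12) to 985 to 1201, 3275 to 3458 and 8810 to 9350. Stromal markers (11 of 12) summed to 2183 to 2726 in tips, 18653 to 19169 in stalks and 16174 to 16760 in mesenchyme. Single stromal markers differed in their order: Postn was at 1749 and 1630 in stalks and 689 and 616 in mesenchyme, and Foxd1 at 909 and 821 in stalks and 1934 and 1847 in mesenchyme. No marker on any array was at 0.

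Levels below are the deposited intensities, in arbitrary units, and are compared only between arrays for 1 probe set. Differences are on the log2(intensity + 16) scale after quantile normalisation, on which the changes of weak signals come out too small. A probe set passed the test when limma's Benjamini-Hochberg adjusted p over all tested probe sets of the table was under 0.05 and the difference was at least 2-fold. A gene with several probe sets is represented by the one with the highest mean. A probe set was tested where at least 1 tissue reached the median of its table, an intensity of 49.3 in mouse.

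Of the 32 mouse genes, 21 were tested and 11 were not, because no tissue reached that median. The 11 were Cdh7, Cdh8, Cdh15, Cdh17, Cdh18, Cdh19, Cdh26, Pcdh1, Pcdh10, Pcdh15 and Pcdh20, with intensities from 6.5 to 42.8 over all arrays. Among the 21, 11 reached the median in all 3 tissues and 5 in 2 tissues. Of those 5, Cdh1 and Pcdh7 reached it in tips and stalks but not in mesenchyme. Cdh5, Cdh6 and Cdh9 reached it in stalks and mesenchyme but not in tips. The other 5 (Cdh10, Cdh22, Cdh23, Pcdh12 and Pcdh17) reached it in mesenchyme only, so they could be tested only because they were high there. Counts over the tested genes are therefore given as a description.

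Against mesenchyme, 5 of the 21 genes were higher in tips and 8 were lower (61.9%), where 8.17% of all tested probe sets passed (3.9% higher and 4.26% lower). With no fold minimum 16 of the 21 had an adjusted p under 0.05, beside 33.7% of all tested probe sets. In stalks 4 were higher than in mesenchyme and 1 was lower (23.8%, against 2.77% of all tested probe sets, 2.35% higher and 0.426% lower). The median difference of the 21 genes was -0.34 for tips and -0.08 for stalks, and that of all tested probe sets 0.01 and -0.05. Both comparisons use the same mesenchyme arrays. For the average of tip and stalk, weighted equally, against mesenchyme, 5 genes were higher and 4 lower (42.9%, against 4.65% of all tested probe sets, 2.88% higher and 1.77% lower), with a median of -0.32 beside -0.03 over all tested probe sets. Between the parts of the bud, tips against stalks, 1 gene was higher and 5 were lower (28.6%, against 4.59% of all tested probe sets, 0.953% higher and 3.64% lower), with a median of -0.22 beside 0.06. By role, 5 of the 7 tested type II classical cadherins were lower in tips than in mesenchyme and 0 were higher, while the 4 tested type I cadherins split into 2 higher and 1 lower. With a pseudocount of 64 in place of 16, of these 5 only Cdh11 passed, and Cdh5, Cdh6, Cdh9 and Cdh10 fell short of 2-fold. Cdh10, one of the 5, and Cdh22 among the 7 were tested only through their level in mesenchyme. Cdh5, Cdh6 and Cdh9 were tested only through their levels in stalks and mesenchyme, so the count by role is a description.

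**Figure D1:**
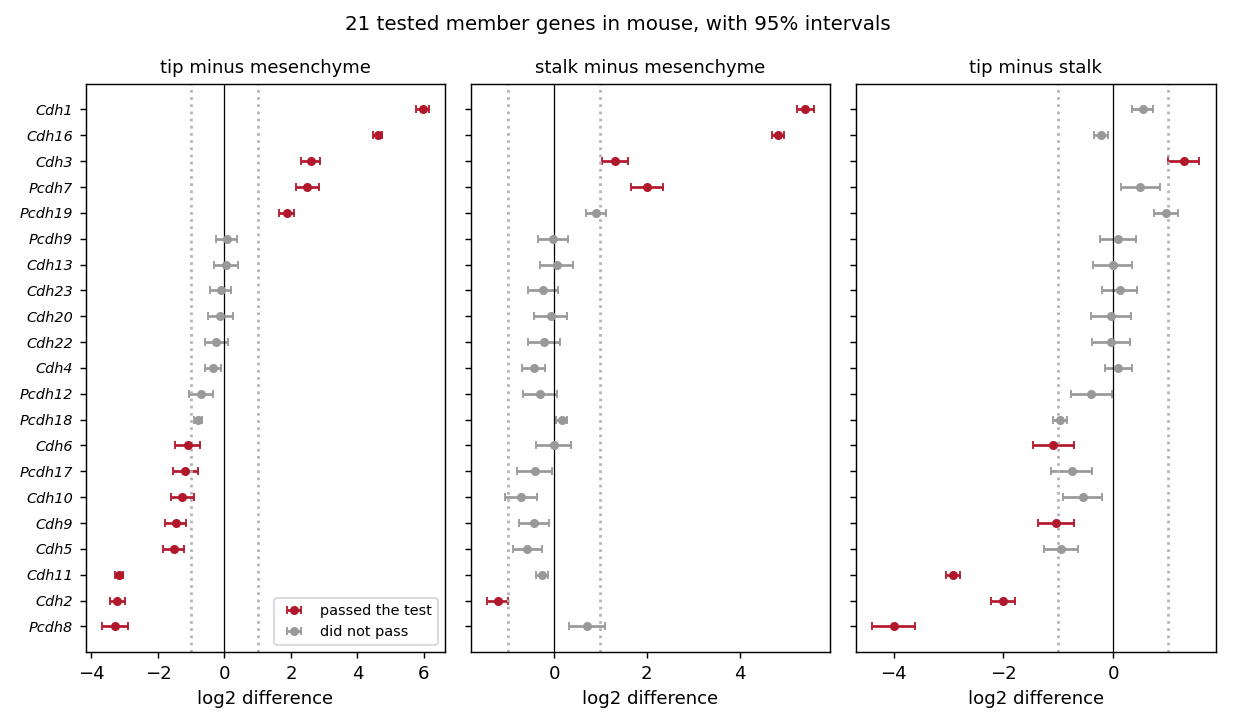
Log2 differences of the 21 tested member genes in mouse (points) with 95% intervals (bars) for tip minus mesenchyme, stalk minus mesenchyme and tip minus stalk; dotted lines mark 2-fold. Cdh1 and Cdh16 lie furthest to the right in both comparisons with mesenchyme, and Pcdh8 furthest to the left in tip minus stalk (-4.00).

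Among the epithelial cadherins, Cdh1 (E-cadherin, the main adhesion receptor of epithelial junctions) had intensities of 2054 and 1874 in the tip arrays, 1333 and 1345 in the stalk arrays and 17.5 and 13.9 in the mesenchyme arrays. Both bud tissues lay far above mesenchyme without overlap, and both mesenchyme values lay below the table median. The difference was 5.96 (SE 0.08, adjusted p = 7.53e-10) for tips and 5.42 (SE 0.08, adjusted p = 2.3e-09) for stalks. Tip and stalk arrays did not overlap either, but their difference of 0.54 (95% interval 0.35 to 0.72) was under 2-fold.

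Cdh16 (kidney-specific cadherin, of the tubular epithelia of kidney) was at 1914 and 1773 in tips, 2055 and 2175 in stalks, and 57.4 and 62.7 in mesenchyme. It was higher than mesenchyme by 4.61 (SE 0.06, adjusted p = 6.45e-10) in tips and by 4.82 (SE 0.06, adjusted p = 7.26e-10) in stalks. Unlike the tip-high order of Cdh1, both stalk arrays lay above both tip arrays, but tip minus stalk was only -0.22 (95% interval -0.35 to -0.09), under 2-fold. The summed bud epithelium markers had tips above stalks, the order of Cdh1 and not of Cdh16. Of the 11 markers, 5 passed as higher in tips than in stalks and 0 as lower, beside 0.953% and 3.64% of all tested probe sets. Krt19 had the order of Cdh16, at 88.8 and 86.8 in tips and 121 and 114 in stalks, but did not pass.

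Cdh3 (P-cadherin, a classical cadherin of basal epithelial layers and placenta) was at 589 and 556 in tips, 242 and 233 in stalks, and 69.9 and 93.5 in mesenchyme. The 3 tissues followed each other without overlap, and Cdh3 was the 1 member higher in tips than in both other tissues. The differences were 1.29 (SE 0.12, adjusted p = 9.49e-05) between tip and stalk, 2.60 (adjusted p = 5.99e-07) between tip and mesenchyme and 1.31 (adjusted p = 0.000141) between stalk and mesenchyme. With all probe sets of the gene averaged, the tip-stalk difference was 0.92 and the stalk-mesenchyme difference 0.63, both under 2-fold.

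**Figure D2:**
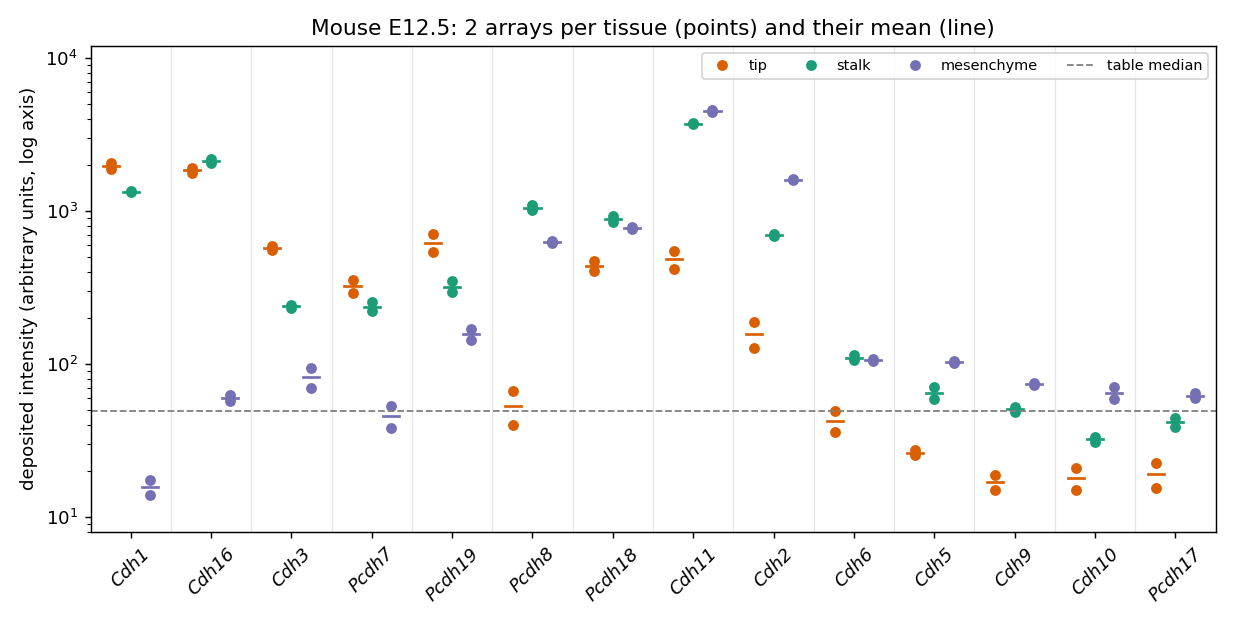
Deposited intensities (log axis) of the 13 mouse members that passed in at least 1 comparison, and of Pcdh18, with 2 arrays per tissue as points and their mean as a line; the dashed line is the table median. Cdh1, Cdh16 and Cdh3 fall from bud to mesenchyme, while the tip points of Pcdh8, Cdh11 and Cdh2 lie far below both other tissues.

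The mesenchymal cadherins ran the other way. Cdh2 (N-cadherin, typical of mesenchyme, nerve and muscle) was at 187 and 127 in tips, 703 and 686 in stalks, and 1621 and 1590 in mesenchyme. The tissues did not overlap, and Cdh2 was the 1 member that passed as lower in tips than in stalks (-2.0, SE 0.10, adjusted p = 1.55e-06), in tips than in mesenchyme (-3.22, adjusted p = 3.99e-08) and in stalks than in mesenchyme (-1.22, adjusted p = 5.15e-05). Its other probe set differed by -1.95, -3.15 and -1.20.

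Cdh11 (OB-cadherin, a type II cadherin of mesenchyme and bone-forming cells) was at 549 and 415 in tips, 3741 and 3724 in stalks, and 4458 and 4602 in mesenchyme. Tips lay well below both other tissues, with differences of -2.91 against stalks (SE 0.06, adjusted p = 9.14e-09) and -3.17 against mesenchyme (adjusted p = 2.02e-09). Stalks lay only slightly below mesenchyme (-0.26, 95% interval -0.39 to -0.13). The stalk pool stood between tip and mesenchyme for Cdh2 but near mesenchyme for Cdh11. Its second probe set differed by -2.89, -3.40 and -0.52. All 11 stromal markers were lower in tips than in stalks and in mesenchyme, and between stalk and mesenchyme 2 were higher and 1 lower, with a median of 0.16. Nephron progenitor markers lay in the order of Cdh2, with 10 of 11 lower in tips and 7 of 11 lower in stalks than in mesenchyme (medians -2.89 and -1.59). The part of either list in the Cdh2 and Cdh11 results was not tested. In these bulk pools, fewer cells of a type and less RNA per cell cannot be told apart.

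The remaining type II cadherins were weaker. Cdh6 (K-cadherin, known from the early nephron) was at 49.1 and 36.1 in tips, 114 and 106 in stalks, and 104 and 107 in mesenchyme, so tips lay below the other tissues and stalks overlapped mesenchyme. It passed as lower in tips, with differences of -1.09 against stalks (adjusted p = 0.00123) and -1.10 against mesenchyme (adjusted p = 0.000799). Its second probe set differed by only -0.37 and -0.15, and without the second tip labeling the representative fell short of 2-fold, at -0.90 and -0.91. Cdh6 therefore rests on 1 of its 2 probe sets and on 1 array. Early nephron markers, 12 of 12 on the array, summed to 6617 to 7574 in tips, 8480 to 8744 in stalks and 4902 to 4993 in mesenchyme. Single markers were split. Against mesenchyme, 4 were higher in tips (Lhx1, Jag1, Ccnd1 and Pou3f3) and 2 lower (Bmper and Sfrp2). Of all tested probe sets 3.9% were higher and 4.26% lower there. Against stalks, 2 were higher in tips (Lhx1 and Pou3f3) and 2 lower (Bmper and Sfrp2), beside 0.953% and 3.64%. Their part in the Cdh6 result was not tested.

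Cdh9 was at 18.7 and 15.1 in tips, 52.6 and 48.4 in stalks, and 75.5 and 72.7 in mesenchyme, without overlap between tissues. Tip minus stalk was -1.04 (SE 0.14, adjusted p = 0.000749) and tip minus mesenchyme -1.47 (adjusted p = 5.76e-05). Stalk minus mesenchyme was -0.43 and did not pass. The tip-stalk call lay at the 2-fold limit and was lost in 5 alternatives: without the second tip labeling (-0.93), without the first stalk labeling (-0.96), with scaling to the trimmed mean (-0.999), with a pseudocount of 64 (-0.51), and when tested against a 1.5-fold change (adjusted p = 0.119). Cdh10, a type II cadherin best known from brain, was at 20.9 and 15.0 in tips, 31.1 and 33.2 in stalks, and 59.0 and 70.8 in mesenchyme. Both tip arrays were below both mesenchyme arrays, and tip minus mesenchyme was -1.27 (adjusted p = 0.000242). Tip minus stalk (-0.55) and stalk minus mesenchyme (-0.71) were under 2-fold. The other probe sets of Cdh10 had tissue means from 8.5 to 24.8 and were not tested. The strongest of them averaged 24.8 in tips and 23.3 in mesenchyme, so the Cdh10 result rests on 1 probe set.

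Cdh5 (VE-cadherin, the junction cadherin of endothelium) was at 27.2 and 25.5 in tips, 58.8 and 70.4 in stalks, and 102 and 104 in mesenchyme. The tissues lay in that order without overlap. The difference passed between tip and mesenchyme (-1.53, SE 0.14, adjusted p = 3.65e-05). It was under 2-fold between tip and stalk (-0.95, 95% interval -1.26 to -0.64) and between stalk and mesenchyme (-0.58, 95% interval -0.89 to -0.26). A second probe set averaged 26.75 in tips, 29.25 in stalks and 33.5 in mesenchyme and was not tested. With a pseudocount of 64, or with all probe sets averaged, the tip-mesenchyme difference did not pass. The mouse Cdh5 result therefore rests on 1 probe set. Without the first tip labeling, or without the first stalk labeling, the tip-stalk difference passed. The 15 endothelial markers, which do not include Cdh5, summed in the same order, to 1841 to 1961 in tips, 3799 to 3825 in stalks and 5048 to 5472 in mesenchyme. Of these 15, 12 were lower in tips than in mesenchyme, 7 lower in tips than in stalks and 0 differed by the rule between stalk and mesenchyme (limma). Pecam1, a defining endothelial marker, was at 66.4 and 54.3 in tips, 141 and 147 in stalks, and 218 and 207 in mesenchyme, and Tie1, another, was at 38.9 and 39.6 in tips, below the table median. No detection call was used here, so a level near the median does not show whether a transcript was present. The part of endothelial cells in the Cdh5 result was not tested. Pcdh12, a protocadherin also known from endothelium, was at 32.7 and 26.7 in tips, 37.5 and 47.5 in stalks, and 63.0 and 52.7 in mesenchyme, and its difference of -0.70 between tip and mesenchyme was under 2-fold.

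Of the protocadherins, Pcdh8 (related to the paraxial protocadherin of early embryos) carried the largest tip-stalk difference of the 21 genes. It was at 66.2 and 40.1 in tips, 1093 and 1014 in stalks, and 641 and 616 in mesenchyme. Tips were far below both tissues and stalks above mesenchyme, with no overlap. The tip-stalk difference was -4.00 (SE 0.17, adjusted p = 7.02e-07) and the tip-mesenchyme difference -3.29 (SE 0.17, adjusted p = 1.03e-06), while stalk minus mesenchyme was 0.70 (95% interval 0.32 to 1.09, adjusted p = 0.0277), under 2-fold. A second probe set differed by -3.72, -3.07 and 0.65. Markers of ureteric mesenchyme and smooth muscle, 10 of 10 on the array, had the same order of tissues, with sums of 1701 to 1897 in tips, 5966 to 6285 in stalks and 3466 to 3794 in mesenchyme. Of the 8 tested, 4 were lower in tips than in stalks. In stalks 3 were higher (Tbx18, Ptch1 and Sox9) and 1 lower (Des) than in mesenchyme. In tips 5 were lower and 1 (Sox9) higher than in mesenchyme, beside 4.26% and 3.9% of all tested probe sets. Sox9, at 475 and 414 in tips and 214 and 163 in mesenchyme, thus differed from the order of Pcdh8. Single markers differed in their order: Tbx18 was at 1636 and 1490 in stalks and 673 and 615 in mesenchyme. Acta2, Tagln and Myl9, which did not pass between stalk and mesenchyme, had lower means in stalks than in mesenchyme. The summed stromal markers had the same order of tissues as Pcdh8 too. Skeletal muscle markers, 10 of 10 on the array, also summed highest in stalks (1860 to 1983, against 321 to 381 in tips and 634 to 645 in mesenchyme). That sum was mostly Actc1, a cardiac and embryonic muscle actin, at 1565 and 1667 in stalks, 46.7 and 64.2 in tips and 318 and 287 in mesenchyme, and 6 of the 10 markers, Myod1 among them, were below the table median in every tissue. The part of these cells in the Pcdh8 result was not tested.

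Pcdh7 (a delta-1 protocadherin) was at 356 and 289 in tips, 221 and 252 in stalks, and 53.1 and 38.2 in mesenchyme. Both bud tissues were above mesenchyme, by 2.50 (SE 0.15, adjusted p = 3.08e-06) in tips and 2.00 (adjusted p = 3.98e-05) in stalks, and tip and stalk differed by 0.50 (95% interval 0.14 to 0.85), under 2-fold. A second tested probe set was higher by 1.74 and 1.65. The mean of tip and stalk was higher than mesenchyme by 2.25 (adjusted p = 3.54e-06).

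Pcdh19 (a delta-2 protocadherin that associates with N-cadherin) was at 702 and 536 in tips, 347 and 294 in stalks, and 170 and 143 in mesenchyme. The 3 tissues followed each other without overlap. Tip minus mesenchyme was 1.88 (SE 0.10, adjusted p = 1.04e-06), and tip minus stalk and stalk minus mesenchyme were 0.97 and 0.91, both close to 2-fold but short of it, and the mean of tip and stalk was higher than mesenchyme by 1.39 (adjusted p = 3.95e-06). One of its 3 probe sets passed between tip and stalk, with differences from 0.62 to 1.04, and the representative passed without the second tip labeling or without the first stalk labeling. Pcdh19 and Cdh2 thus ran in opposite orders over the 3 tissues.

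Pcdh17 was at 22.5 and 15.5 in tips, 44.4 and 38.6 in stalks, and 64.3 and 59.8 in mesenchyme, without overlap. Tip minus mesenchyme was -1.17 (adjusted p = 0.000578), and -0.99, short of 2-fold, without the second tip labeling. Tip minus stalk (-0.76) and stalk minus mesenchyme (-0.42) were under 2-fold. Pcdh17, like Cdh10, was tested only through its level in mesenchyme. Its other probe set averaged 17.1 in tips, 24.55 in stalks and 24.65 in mesenchyme and was not tested. The Pcdh17 result therefore rests on 1 probe set. Pcdh18 was at 472 and 407 in tips, 921 and 854 in stalks, and 788 and 767 in mesenchyme. Its representative missed 2-fold between tip and stalk (-0.97, adjusted p = 3.41e-06), while 2 of its 3 probe sets passed, with differences from -1.04 to -0.97. The order of its tissues, with stalks above mesenchyme and tips lowest, was that of Pcdh8. Cdh4, Cdh13, Cdh20, Cdh22, Cdh23 and Pcdh9 passed in none of the 4 mouse comparisons. Without Cdh4, these lay between 33.7 (Cdh22, a tip array) and 84.8 (Pcdh9, a tip array), with differences from -0.24 to 0.12. Cdh4 (R-cadherin), at 136 and 121 in tips, 122 and 133 in stalks and 183 and 159 in mesenchyme, differed from mesenchyme by -0.34 in tips and -0.44 in stalks.

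The rat bud was compared with rat mesenchyme on each design separately. On the first design 2 of 7 genes were tested, with 1 higher and 1 lower, where 5.78% of all tested probe sets passed (2.75% higher and 3.03% lower). On design B 7 of 11 were tested, with 2 higher and 3 lower (5.78% of all tested probe sets, 3.05% higher and 2.73% lower), and on design C 3 of 4, with 0 higher and 1 lower (4.63%, 2.22% higher and 2.41% lower). The medians of the tested members were 0.21, -0.28 and -0.23, beside 0.02, -0.02 and -0.01 over all tested probe sets. Cdh2 on the first design, and Cdh2, Cdh5 and Cdh11 on design B, reached the table median in mesenchyme only, and Cdh1 on design B in bud only, so these could be tested only through the tissue where they were high.

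Cdh1 was at 1804 and 1547 in rat bud and 89.0 and 73.7 in rat mesenchyme on design B, far apart, with a difference of 4.09 (SE 0.13, adjusted p = 4.93e-05). Cdh16 was at 651 and 686 in bud and 173 and 183 in mesenchyme on the first design, a difference of 1.82 (SE 0.12, adjusted p = 0.000265). Cdh3 was at 721 and 635 in bud and 267 and 244 in mesenchyme on design B, a difference of 1.33 (SE 0.13, adjusted p = 0.00186). All 3 epithelial cadherins were thus higher in the rat bud, with no overlap between tissues.

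Cdh11 was at 88.2 and 91.9 in bud and 684 and 643 in mesenchyme on design B, a difference of -2.69 (SE 0.11, adjusted p = 8.33e-05). Cdh2 was at 14.5 and 16.3 in bud and 195 and 203 in mesenchyme on design B (-2.77, SE 0.15, adjusted p = 0.000164). On the first design its representative probe set was at 92.4 and 125 in bud and 293 and 335 in mesenchyme (-1.40, SE 0.17, adjusted p = 0.00336), and a second one at 47.9 and 39.6 in bud and 351 and 329 in mesenchyme (-2.58). Both mesenchymal cadherins were lower in the rat bud on every probe set tested, and the size for Cdh2 differed between probe sets. Stromal markers on the first design (10 of 12) summed to 1582 to 1761 in bud and 5651 to 6501 in mesenchyme. On design C (5 of 12) they summed to 1787 to 2032 in bud and 2635 to 2771 in mesenchyme. By the rule 6 of 8 tested were lower in bud on the first design and 0 of 5 on design C. Design B held 0 of the 12, and the part of these markers was not tested.

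Cdh5 was at 33.9 and 23.8 in bud and 194 and 220 in mesenchyme on design B (-2.32, SE 0.17, adjusted p = 0.000582), and at 154 and 153 in bud and 343 and 371 in mesenchyme on design C (-1.16, SE 0.10, adjusted p = 0.00267). Bud and mesenchyme did not overlap on either design. On design C the call was lost without the first mesenchyme labeling (-1.22, adjusted p = 0.0619) or without the second (-1.12, adjusted p = 0.0609). Endothelial markers summed to 797 to 908 in bud and 1114 to 1228 in mesenchyme on design B (8 of 15, 4 of them below the median in both tissues), and to 633 to 658 and 967 to 1028 on design C (6 of 15). On design B 0 of 4 tested were lower, with a median of -0.33, and on design C 1 of 5, with a median of -0.72. Their part in the Cdh5 result was not tested.

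Pcdh8 was at 361 and 321 in rat bud and 409 and 417 in rat mesenchyme on design B (-0.28, 95% interval -0.56 to 0.01, adjusted p = 0.163), and at 186 and 191 in bud and 217 and 231 in mesenchyme on design C (-0.23, 95% interval -0.48 to 0.01, adjusted p = 0.191). Bud arrays of these probe sets lay below mesenchyme arrays, but the differences did not pass, and both intervals exclude a 2-fold change. A second probe set on design C overlapped, at 125 and 142 in bud and 140 and 144 in mesenchyme (-0.07), and a second one on design B differed by -0.27. Pcdh1 on design B (185 and 216 in bud, 217 and 223 in mesenchyme) and Cdh15 (M-cadherin, of muscle precursors) on design C (336 and 332 in bud, 412 and 361 in mesenchyme) did not pass either, with differences of -0.13 and -0.23.

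**Figure D3:**
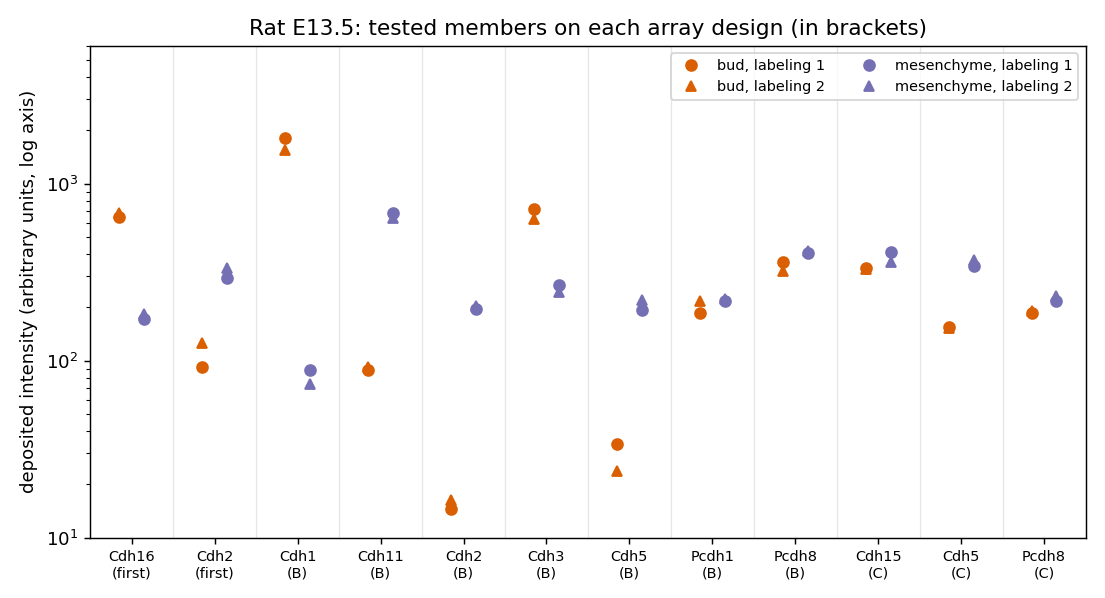
Deposited intensities (log axis) of the members tested on each rat design, with bud and mesenchyme in different colours and the labelings as circles and triangles. Cdh1, Cdh16 and Cdh3 are higher in bud, Cdh2, Cdh11 and Cdh5 higher in mesenchyme, and Pcdh8, Pcdh1 and Cdh15 lie close together.

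Without the second rat bud labeling, all 8 rat differences that passed did so again. Cdh1 was then at 4.17, Cdh16 at 1.80, Cdh3 at 1.44 and Cdh11 at -2.70, and Cdh2 at -2.81 on design B and -1.59 on the first design. Cdh5 was at -2.15 on design B and -1.14 on design C. The members not tested were Cdh4, Cdh6, Cdh8, Cdh17 and Cdh22 on the first design (15.9 to 114.6, where the table median was 111 and single arrays but no tissue mean reached it), Cdh13, Cdh15, Pcdh7 and Pcdh19 on design B (23.6 to 84.5), and Cdh13 on design C (75.8 to 100.4). Pcdh7, higher in the mouse bud, was at 43.8 and 56.2 in rat bud and 23.6 and 27.5 in rat mesenchyme, below the median of 118 of its design. Both bud arrays were above both mesenchyme arrays there, with no test.

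The values of the mouse mean of tip and stalk and of the rat whole bud, each against mesenchyme, are set side by side here as a description, since several of these genes were tested only through the tissue where they were high. Cdh1 was higher by 5.69 in mouse and 4.09 in rat, Cdh16 by 4.71 and 1.82, and Cdh3 by 1.95 and 1.33. The genes lower in bud were Cdh2 (-2.22 in mouse, -1.40 and -2.77 in rat), Cdh11 (-1.71 and -2.69) and Cdh5 (-1.05 in mouse, -2.32 and -1.16 in rat). Pcdh8 passed in mouse (-1.30, SE 0.15), where the value averages -3.29 in tips and 0.70 in stalks, but not in rat. With a pseudocount of 64 the mouse differences of Pcdh8 (-0.97) and Cdh5 (-0.65) fell short of 2-fold, as did that of Cdh5 with all probe sets averaged (-0.60). Species, stage, array design and the parts of bud collected all differ, so the sizes cannot be compared and no difference between species was tested.

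**Figure D4:**
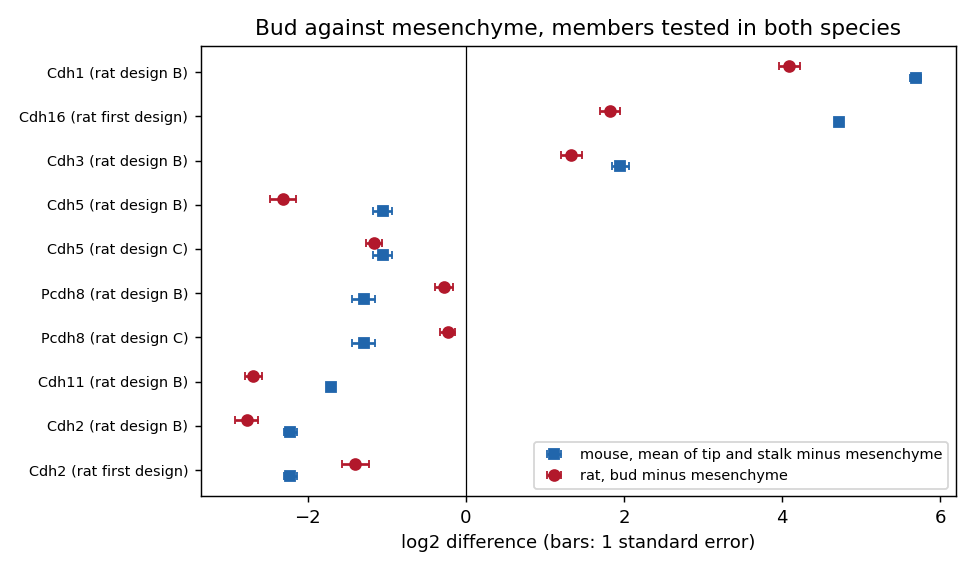
Log2 differences of bud against mesenchyme for the 10 gene and design pairs tested in both species, with squares for mouse (mean of tip and stalk), circles for rat and bars for 1 standard error. Cdh1, Cdh16 and Cdh3 lie right of 0 and Cdh2, Cdh11 and Cdh5 left of 0 in both species, while rat Pcdh8 lies near 0.

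The catenins and other junction adaptors bind cadherins inside the cell. Of 17 tested, 6 were higher in tips than in mesenchyme and 0 lower, with a median of 0.61, and 2 were higher in stalks, with a median of 0.35. For this and the following lists, 3.9% of all tested probe sets were higher and 4.26% lower in tips than in mesenchyme (median 0.01). The shares were 2.35% and 0.426% for stalks against mesenchyme (median -0.05), and 0.953% and 3.64% for tips against stalks (median 0.06). Ctnnd2 (delta-catenin, of the p120 family) was higher in tips by 3.09 and the plakophilin Pkp2, of desmosomes, by 3.06 (adjusted p = 2.52e-06 and 1.69e-07). The general partners stayed under 2-fold: Ctnnb1 (beta-catenin) differed by -0.12 between tip and mesenchyme, Ctnna1 (alpha-catenin) by 0.22, Ctnnd1 (p120-catenin) by 0.20 and Jup (plakoglobin) by 0.60. Between tip and stalk Ctnnd2 (2.03) and Pkp2 (1.19) were the 2 of 17 that passed. In rat, Ctnnd2 (2.61), Magi1 (1.40) and Ctnnal1 (1.19) were higher in bud on design B, 3 of 7 tested, Hook1 was the 1 of 3 on the first design, and 0 of 4 passed on design C.

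Of 9 desmosomal cadherins, 6 were on the mouse array and 2 were tested. Dsg2 was higher than mesenchyme by 3.73 in tips and 2.85 in stalks, and Dsc2 by 2.80 and 2.42. Dsc2 was also higher in rat bud, by 1.54. Among 14 tested atypical and giant cadherins and their regulators, 3 were higher and 2 lower in tips than in mesenchyme (median 0.14). Celsr1 (a planar polarity cadherin) was higher by 1.86, and by 1.83 in rat bud on design C. Fat4 (a giant cadherin of the stroma in kidney) was lower in tips, with differences of -3.06 against mesenchyme and -3.12 against stalks, and 0.06 between stalk and mesenchyme. Clstn2 (a calsyntenin) was lower in tips as well (-2.92 and -3.54). Of 10 tested nectins and other immunoglobulin adhesion molecules, 4 were higher and 2 lower in tips than in mesenchyme (median 0.45), and 0 were higher and 2 lower in tips than in stalks. The largest in each direction were Epcam (an epithelial adhesion molecule, also in the bud marker list), higher in tips by 5.13, and Alcam (an immunoglobulin adhesion molecule), at -2.07 against mesenchyme and -1.74 against stalks.

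Known transcriptional regulators of E-cadherin, together with the splicing regulators Esrp1 and Esrp2, were listed next, to set their levels beside those of Cdh1. Of 18 tested, 8 were higher and 5 lower in tips than in mesenchyme (median 0.53), and 6 were higher and 0 lower in stalks (median 0.73). The epithelial factors Grhl2 and Ovol2 were higher in tips by 3.68 and 2.74 and in stalks by 2.61 and 1.39. In tips and in stalks, the splicing regulator Esrp1 was higher by 5.49 and 4.05, and the activator Tfap2a by 3.64 and 2.55. The activator Tfap2b, also in the bud marker list, was higher by 3.28 and 2.13. The repressors Zeb1, Zeb2, Snai2 and Twist1 were lower in tips than in mesenchyme, with differences of -3.10, -2.20, -2.09 and -2.80. In stalks Zeb1 was at -0.90, Zeb2 at 0.86, Snai2 at 0.24 and Twist1 at -0.49 against mesenchyme, all under 2-fold, while Cdh1 was higher there by 5.42. In tips against stalks 5 of the 18 were higher and 7 lower. All 11 stromal markers were likewise lower in tips than in mesenchyme (median -2.77) and had a median of 0.16 in stalks against mesenchyme. Their part in the values of the repressors was not tested. In rat bud, Esrp1 (3.50) and the activator Tfap2a (1.44) were higher on design B, 2 of 6 tested, Snai2 was lower (-1.22) on the first design, 1 of 4, and 0 of 2 passed on design C.

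By the order of genes in the rat reference (RefSeq, GRCr8), 8 of the 17 rat members lie on chromosome 19. Cdh1 and Cdh3 are neighbours there, with 0 protein-coding genes between them, and both were higher in bud in mouse and rat. Cdh5 and Cdh11 are neighbours as well, and both were lower in bud in both species. Cdh16, higher in bud, is 13 protein-coding genes from Cdh5, lower in bud.

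Promoters of 7 of the 17 rat members were matched by symbol in the RefSeq promoter table. Those of Pcdh7 and Pcdh8, the protocadherins with the largest bud-high and the largest tip-low difference in mouse, are shown as the 250 bases before the start of the gene, 5' to 3' on the gene's strand, for Pcdh7 at chr14:57113523-57113772 (minus strand, GRCr8) and for Pcdh8 at chr15:61612091-61612340 (minus strand, GRCr8). Capitals mark matches to TATAAA or its reverse complement TTTATA and to CCAAT or its reverse complement ATTGG.

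Pcdh7: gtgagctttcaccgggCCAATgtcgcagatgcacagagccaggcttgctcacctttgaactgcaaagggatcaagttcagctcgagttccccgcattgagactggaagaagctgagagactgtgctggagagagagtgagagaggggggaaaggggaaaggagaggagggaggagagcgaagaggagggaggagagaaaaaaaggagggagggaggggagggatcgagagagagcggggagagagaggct

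Pcdh8: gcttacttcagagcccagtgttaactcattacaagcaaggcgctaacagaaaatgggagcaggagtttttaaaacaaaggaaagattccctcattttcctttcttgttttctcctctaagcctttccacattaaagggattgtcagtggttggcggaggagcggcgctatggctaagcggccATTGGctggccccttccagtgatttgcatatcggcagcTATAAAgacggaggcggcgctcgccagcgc

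The Pcdh8 window held TATAAA from 30 to 25 bases before the start, a match found in 12.9% of the 33469 windows of this length in the table, and ATTGG from 68 to 64 bases before it. The Pcdh7 window held CCAAT from 234 to 230 bases before the start and no match to the TATA letters. Either form of the CCAAT letters occurred in 34.0% of all windows and in 3 of the 7 members. The letters CAGGTG or CACCTG, which Snail and Zeb factors are known to bind, occurred in 15.9% of all windows and in 0 of the 7 members, among which Cdh1 was not. The Pcdh7 window had 7 CpG and the Pcdh8 window 11, beside a median of 5. These matches describe letters in rat windows, and no measurement here tests them.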

How the data were processed

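RNA from mouse and rat embryonic kidney tissue was measured on Affymetrix arrays, from 1 ug of total RNA per target, per the labels. The intensities, on a linear scale, are as the authors deposited them, in 4 tables (mouse, and the first, B and C rat designs). How they were scaled and summarised is not stated in the labels or files. Each table was quantile normalised, control probe sets were left out, and log2(intensity + 16) was taken. Probe sets with a tissue mean at or above the table's median were tested (23919, 4616, 4657 and 4648) with limma 3.58.1 in R 4.3.3 (lmFit, eBayes with trend), with 1 fit for all 6 mouse arrays and 1 for each rat table, which was tested on simulated data. A call needed a Benjamini-Hochberg adjusted p under 0.05 and a 2-fold difference, and every adjusted p given is from these fits.

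Samples were grouped by their source labels. Genes came from the platform annotation, which can be old. All 17 rat members matched the reference by Entrez identifier with the same symbol. All members were accounted for. Those called in at least 1 comparison, and Cdh1, Cdh5, Cdh16 and Pcdh8, were given with the value in every array of each table where they were called, and genes of related lists were named from those called, larger differences first, not all of them. Pcdh18, Pcdh12, Cdh4, Pcdh1, Cdh15 and the general catenins, and Zeb2 and other regulators in stalks, are given beside them without a call. The members and lists were chosen with earlier results of these data known. The lists of erythroid, macrophage, and neuronal and glial markers were also run: 3 of 5, 4 of 9 and 4 of 8 tested mouse genes were lower in tips than in mesenchyme, and 1 neuronal and glial gene was higher. Alternatives changed the scaling, pseudocount, filter, probe set rule, threshold, replicate block and arrays.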

Additional observations from a re-analysis of the deposited data

Results flagged for a closer look

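Pcdh8 was marked because its difference from mesenchyme had opposite signs in the parts of the mouse bud: tips lay below mesenchyme in both arrays (-3.29) and stalks above it in both (0.70). Tip minus stalk is by construction the difference between these values, on the same arrays, and was -4.00 (SE 0.17, limma adjusted p = 7.02e-07), so it restates the pattern and adds no independent evidence. The stalk value on its own was under 2-fold.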

How the results depend on the processing

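Among 41 gene differences that passed, 638 alternative values were computed, of which 609 passed again, 29 did not and 0 changed sign, and 29 of the 41 passed under every alternative run. These totals leave out Cdh10 and Pcdh17, tip against mesenchyme, with all probe sets averaged, where neither was tested and so neither passed. Without a fold minimum 14 of the 21 members passed for tip against stalk, beside 28.6% of all tested probe sets. For stalk against mesenchyme 11 passed, beside 13.1%, and for the mean of tip and stalk against mesenchyme 16 passed, beside 25%. With a pseudocount of 64, 8 members passed between tip and mesenchyme (Cdh5, Cdh6, Cdh9, Cdh10 and Pcdh17 did not), beside 1266 of all tested probe sets. On rat design C 0 members then passed, beside 147 of all tested probe sets. When 1 array at a time was left out, 1 tissue kept a single array, so counts of members that passed are not given. Of the 41 differences, 0 changed sign then. For Cdh5 in the mean of tip and stalk against mesenchyme, leaving out the first stalk array gave -0.999, just short of 2-fold. The cause was not tested. The tissues share replicate numbers, and deviations of same-numbered arrays correlated at 0.42 to 0.57 in mouse and 0.22 to 0.31 in rat. With the replicate number as a block, 6, 13, 5 and 9 mouse members and 2, 5 and 1 rat members passed, the same counts as without it. Of all tested probe sets, 1098, 1953, 663 and 1112 passed then in mouse and 306, 274 and 221 in rat. The labels do not say that the numbers mark a shared batch. Both arrays of a tissue come from 1 RNA, and low signal limits the genes near the table median.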
